A study of Mus musculus with 4 samples.

Results

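The neutral lipid hydrolases followed here are the enzymes encoded by Lipe, Mgll, Lipc, Lpl and Lipa, which split stored or circulating acylglycerols and cholesteryl esters. They were taken by name, as all probe sets annotated to the 5 genes whatever their signal, and 4 of the genes had 6 probe sets among the 10833 probe sets with 1 annotated gene. Lipe and Lipa had 1 probe set each and Mgll and Lpl had 2 each, while no probe set here was annotated to Lipc, which was not analysed. Livers of female mice aged 8 months and in the fed state were compared on Affymetrix MG_U74Av2 arrays. The groups were HSL-null on a high-fat diet (FD, 58% of energy from fat), wild type on FD, HSL-null on a normal diet (ND, 11%) and wild type on ND, each diet given for 6 months. HSL-null mice carry a general knockout of Lipe, so the enzyme was missing in every tissue and not in liver alone. The HSL-null FD pool held 4 livers and each of the other pools 6, and as every group was 1 pool on 1 array there were no replicates, no test and no p-value. "Higher" and "lower" therefore describe these 4 pools, and fewer cells of a type and less RNA per cell cannot be told apart in them.

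Neutral lipid leaves a cell in steps. In the cytosol, adipose triglyceride lipase (Pnpla2) with its activator Abhd5 takes the first fatty acid from a triglyceride, hormone-sensitive lipase (HSL, the Lipe product) cleaves diglycerides and cholesteryl esters, and monoglyceride lipase (Mgll) frees the last fatty acid and glycerol. Lysosomal acid lipase (Lipa) does this work inside lysosomes, and lipoprotein lipase (Lpl) and hepatic lipase (Lipc) act outside the cell on lipoproteins. Lipe is best known from adipose tissue, and the liver also uses carboxylesterases of the endoplasmic reticulum. The question put to the arrays was whether the RNA of any hydrolase that could stand in for the missing one differed.

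The start regions of Lipe are shown because Lipe is the targeted gene and because 1 probe set had to stand for the transcripts of both of its listed starts. Those of Mgll and Lipa follow as the intracellular hydrolases with a kept probe set. Each stretch is the 200 bases before a transcript start in RefSeq's GRCm38.p6 annotation, written 5′ to 3′ on the strand of the gene. Capitals mark the E-box CACGTG, which basic helix-loop-helix factors bind, and the GC box GGGCGG, which Sp1-type factors bind, on both strands.
Lipe start 1, chr7:25395988-25396187, minus strand: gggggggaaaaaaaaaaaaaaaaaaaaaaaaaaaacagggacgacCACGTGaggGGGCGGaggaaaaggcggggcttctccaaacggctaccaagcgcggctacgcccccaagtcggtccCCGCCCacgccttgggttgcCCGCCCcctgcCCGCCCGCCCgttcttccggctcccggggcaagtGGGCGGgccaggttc
Lipe start 2, chr7:25390113-25390312, minus strand: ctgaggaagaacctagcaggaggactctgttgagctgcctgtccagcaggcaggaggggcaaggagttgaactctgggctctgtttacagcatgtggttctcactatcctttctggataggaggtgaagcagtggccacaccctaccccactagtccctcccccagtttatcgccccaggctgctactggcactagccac
Mgll start 1, chr6:88724212-88724411, plus strand: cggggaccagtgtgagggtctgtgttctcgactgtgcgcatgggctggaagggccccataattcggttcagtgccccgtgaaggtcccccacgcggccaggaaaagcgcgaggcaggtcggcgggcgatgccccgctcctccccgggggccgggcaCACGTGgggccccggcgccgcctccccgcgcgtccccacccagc
Lipa, chr19:34527475-34527674, minus strand: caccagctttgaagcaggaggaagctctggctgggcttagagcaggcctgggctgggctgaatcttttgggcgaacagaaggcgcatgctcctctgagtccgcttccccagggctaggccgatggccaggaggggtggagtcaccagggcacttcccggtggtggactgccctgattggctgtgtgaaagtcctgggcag
Of the 2 Lipe starts shown, the upstream one held 1 E-box, its first base at position -155 from the start. It also held 6 GC boxes, 2 of which overlap each other. The other start of Lipe held neither motif. The annotated Lipe locus reaches base 25398486, upstream of both starts shown, so a start further upstream may not be listed. The Mgll start shown held 1 E-box at -44 and no GC box, a second listed start of Mgll held no E-box and 1 GC box at -121, and Lipa held neither. Of the 32851 stretches of this length in the annotation, 5.26% held the E-box and 31% the GC box. These matches are descriptions of the letters, and the arrays hold no measurement at the promoters.

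A signal is the deposited level of a probe set on a linear scale, and each array had a 2% trimmed mean between 100.085 and 100.094. Every signal below 6.1, which was the 25th percentile when controls were left out, was raised to this floor before log2 ratios were taken. Between 24.1 and 26% of the probe sets of an array lay at or under it. Signals of different probe sets are not set against each other, since probes bind with unlike strength. A gene was kept where the mean of the 4 signals reached the median of those means, 26.9, which left 4829 genes, and 3 of the 6 member probe sets were kept. The 1 measure of error was the disagreement between the kept probe sets of a gene, with an SD of 0.298 in the log2 ratio over 687 genes. This SD leaves out error that an array or a pool shares. It was not measured for probe sets under the filter, Lipe and the dimmer ones of Mgll and Lpl among them. Among kept genes, 2.82% differed 2-fold or more in HSL-null over wild type on FD and 1.57% on ND, and 1.45% in FD over ND in HSL-null liver and 3.15% in wild type. On FD 90 of these genes were higher in HSL-null and 46 lower, against 51 and 72 under median scaling, 63 and 59 under quantile normalization and 57 and 60 under cyclic loess. On ND 24 were higher and 52 lower, against 30 and 36 under median scaling and 28 and 38 under quantile normalization. For FD over ND the counts were 40 higher and 30 lower in HSL-null liver, against 22 and 48, 28 and 39, and 26 and 41 under median scaling, quantile normalization and cyclic loess. In wild type they were 38 and 114, against 61 and 74, 48 and 84, and 48 and 85. Median scaling moved the median ratio of all kept genes by -0.17 and 0.13 for genotype on FD and ND, and by -0.16 and 0.14 for diet in HSL-null and wild type, so small ratios have no firm sign. Hepatocyte markers were bright on every array, with Alb between 4680 and 6913. Each of the 2 staining solution lots was used for 1 genotype only, and the effects of lot and genotype cannot be told apart.

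Lipe, the targeted gene, was the member with the lowest ratios of HSL-null to wild type on both diets. Its signal was 15.9 in HSL-null and 34 in wild type on FD, and 11.9 in HSL-null and 28 in wild type on ND. Both HSL-null pools thus lay below both wild-type pools, and all 4 signals lay above the floor. The log2 ratio was -1.10 on FD, a 2.14-fold difference, and -1.23 on ND, a 2.35-fold difference. Of the 10833 probe sets, 5.12% differed 2-fold or more in either direction on FD and 3.9% on ND, and 0.222% (24 probe sets) were 2-fold or more lower on both diets. Lipe was the 1 member among them. The mean signal, 22.45, lay under the filter, and with the floor raised to the median signal the ratios shrank to -0.35 and -0.069. With a pseudocount of 16 in place of the floor they were -0.65 and -0.66, both short of 2-fold. With arrays normalized by quantiles, by their medians or by cyclic loess, Lipe stayed more than 2-fold lower on both diets. The sources do not place the probes relative to the deletion, so the remaining signal checks the knockout only in part.

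**Figure D1:**
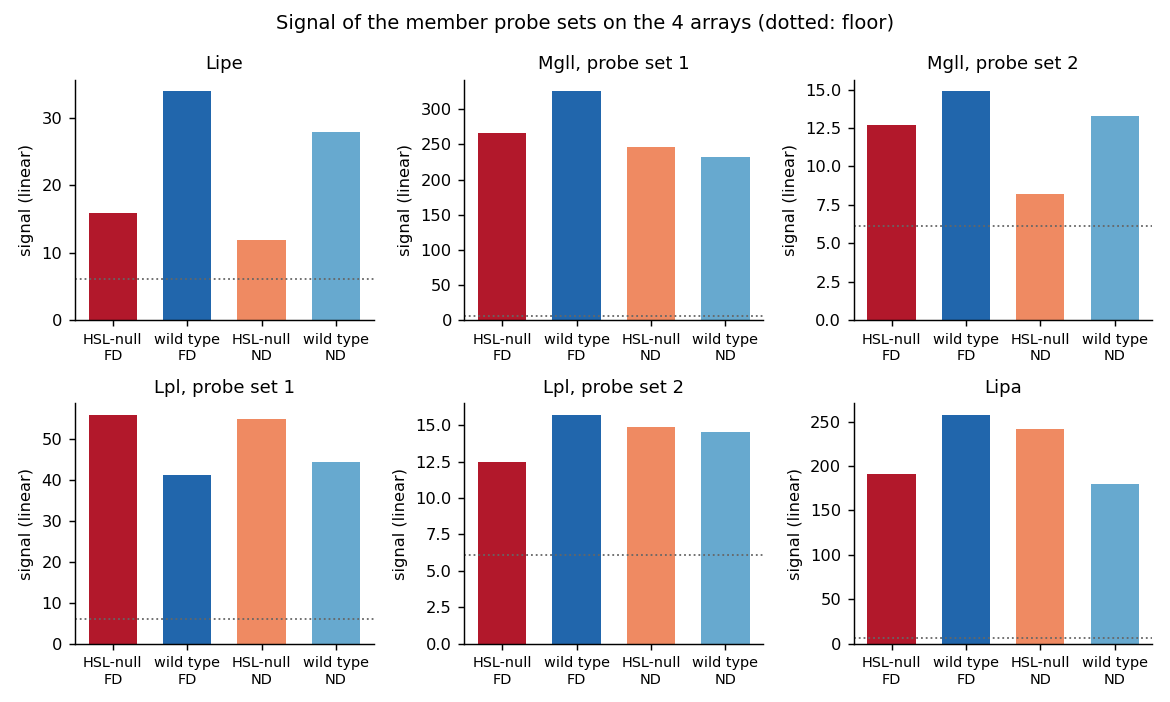
Deposited signal (linear scale, bars from 0) of the 6 member probe sets in the HSL-null FD, wild type FD, HSL-null ND and wild type ND pools, 1 array each; the dotted line is the floor of 6.1 and probe set 1 is the brighter of a gene. Lipe is at 15.9 and 11.9 in HSL-null against 34 and 28 in wild type, and Lipa runs 191.0, 257.6, 241.5 and 179.9.

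Lipe is an adipocyte gene, so the 7 measured adipocyte markers were read beside it. Adipoq, the adiponectin gene, had signals of 4.9 in HSL-null and 9.2 in wild type on FD, and 4.8 in HSL-null and 18.1 in wild type on ND. Cidea, a lipid droplet protein, had 10.7 in HSL-null and 12.9 in wild type on FD, and 4.5 and 19.7 on ND. These 2 markers were lower in HSL-null on both diets, as Lipe was, and Adipoq was under the floor in both HSL-null pools. On FD the log2 ratio of Cidea was only -0.27, from signals near the floor. The fatty acid binding protein gene Fabp4 did not follow these 2 markers. It had 25.2 in HSL-null and 18.6 in wild type on FD, and 15.6 in both genotypes on ND. Pparg, a regulator of fat cell genes, had 43.0 in HSL-null and 35.7 in wild type on FD, and 24.5 and 22.6 on ND. Cidec, which reached at most 1.0, and Retn, at most 4.2, lay under the floor on all arrays. The leptin gene Lep had 99.2 to 124.7 at its brighter probe set and 7.8 to 18.8 at the other. That other probe set had 11.9 in HSL-null and 7.8 in wild type on FD, and 8.0 and 18.8 on ND. Summed over the 7 markers the signal was 210.6 in HSL-null and 190.7 in wild type on FD, and 164 and 177.7 on ND. The brighter Lep probe set made up the largest part of each sum, so the sums say little of the dim markers. The part of adipocyte RNA in the Lipe ratio was not tested.

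**Figure D2:**
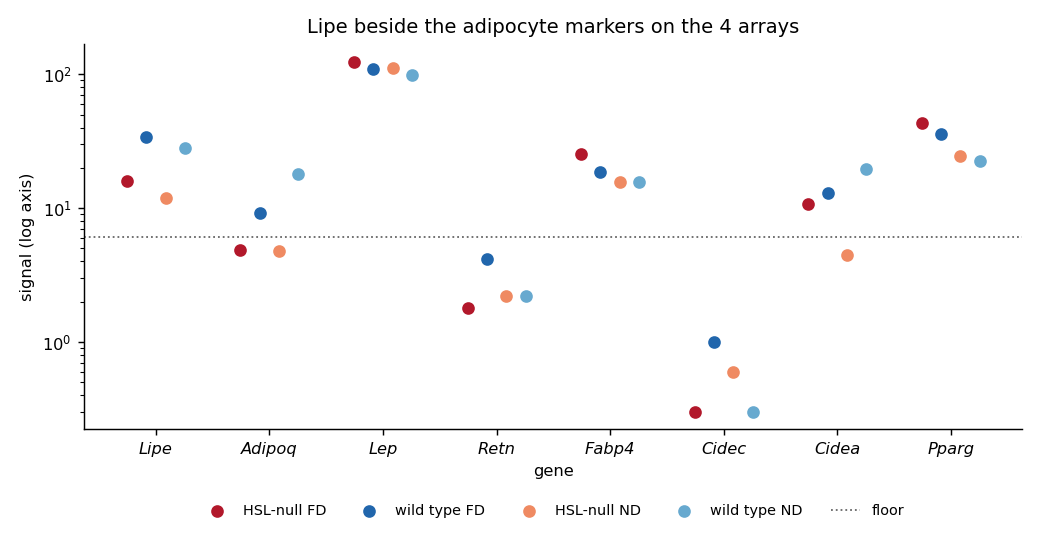
Signal (log axis) of Lipe and of the 7 adipocyte markers at their brightest probe sets on the 4 arrays, with the floor of 6.1 dotted. Adipoq and Cidea are lower in HSL-null than in wild type on both diets, Cidea on FD only slightly, while Fabp4, Lep and Pparg are not.

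Mgll, which completes triglyceride breakdown, had signals of 266.8 in HSL-null and 325.9 in wild type on FD, and of 246.2 in HSL-null and 231.7 in wild type on ND at its brighter probe set. The wild-type FD pool was the highest and the other 3 lay between 231.7 and 266.8. In log2 terms HSL-null over wild type was -0.29 on FD and 0.088 on ND, and 41.8% and 73.5% of the kept genes had larger ratios in size. As deposited both were under the probe set SD. On FD the ratio was -0.27 under quantile normalization, but -0.303 under cyclic loess and -0.456 under median scaling, both beyond that SD. The other probe set was dim, with 12.7 in HSL-null and 14.9 in wild type on FD, and 8.2 and 13.3 on ND. It gave -0.23 on FD and -0.70 on ND, so the 2 probe sets disagreed in sign on ND. No probe set of Mgll was higher in HSL-null by as much as the error.

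Lipa, the lysosomal hydrolase, was lower in HSL-null than in wild type on FD and higher on ND. Its signal was 191.0 in HSL-null and 257.6 in wild type on FD, and 241.5 in HSL-null and 179.9 in wild type on ND. The log2 ratios were -0.43 and 0.42, each larger in size than the probe set SD, and the difference between them, FD minus ND, was -0.86. Under quantile normalization, median scaling, cyclic loess, a floor at the median or a pseudocount the difference lay between -1.15 and -0.80. Ratios larger in size were found in 24.9% of the kept genes on FD and 14.5% on ND, so neither ratio stood far out. Ratios of opposite sign on the 2 diets, both beyond the probe set SD, were found in 366 of the 4829 kept genes (7.58%). Kupffer cells are rich in lysosomes, and the summed signal of 13 Kupffer cell and macrophage markers was 3674 in HSL-null and 2853.7 in wild type on FD, and 3945.1 and 4160.8 on ND, with the 11 kept markers above 0 on FD (median log2 ratio 0.31) and 4 above and 7 below on ND (median -0.070). The median of all kept genes was 0.067 on FD and -0.018 on ND, and median scaling moved the one on FD by -0.17. The marker median was only just beyond the probe set SD on FD. On ND the marker median lay inside that SD and has no firm sign. The part of these cells in the Lipa ratios was not tested.

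Lpl, which is low in adult liver and high in muscle and fat, had signals of 56.0 in HSL-null and 41.2 in wild type on FD, and of 54.9 in HSL-null and 44.5 in wild type on ND. Both HSL-null pools lay above both wild-type pools, with log2 ratios of 0.44 on FD and 0.30 on ND. Its other, dimmer probe set did not show this, with 12.5 in HSL-null and 15.7 in wild type on FD, 14.9 and 14.5 on ND, and ratios of -0.33 and 0.039. The mean over both probe sets was 0.057 on FD. Among kept genes 23.8% had a larger ratio in size than Lpl on FD and 27.6% on ND. Muscle markers, from 14 genes, were all under the filter. The kept macrophage markers are given above, and their part in the Lpl ratio was not tested.

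**Figure D3:**
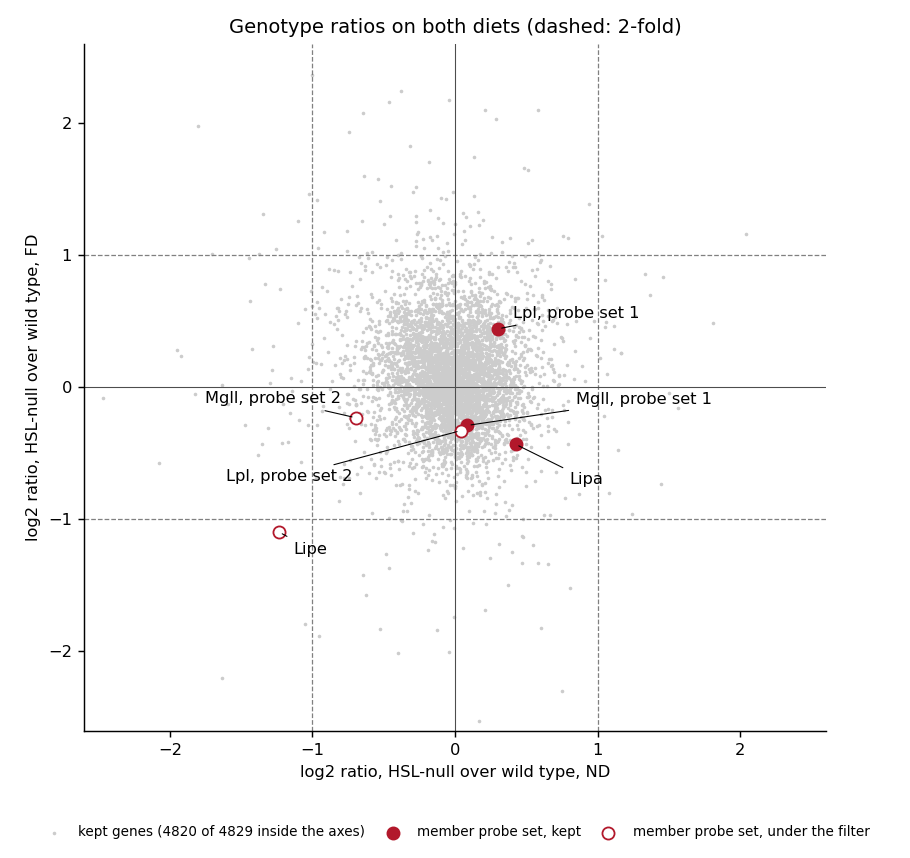
Log2 of HSL-null over wild type on ND (horizontal) and on FD (vertical), 1 grey point per kept gene and red points for the 6 member probe sets (open: under the filter of 26.9); dashed lines mark 2-fold. Lipe, at -1.23 and -1.10, lies beyond both lines, and the other members lie inside them.

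Diet moved the members less than 2-fold in either genotype, where 3.61% of the 10833 probe sets differed 2-fold or more in HSL-null liver and 5.93% in wild type. Lipe had log2 ratios of FD over ND of 0.42 in HSL-null and 0.28 in wild type. Mgll had 0.12 in HSL-null and 0.49 in wild type. The sign in HSL-null turned to -0.040 under median scaling. Lipa had -0.34 in HSL-null and 0.52 in wild type. Lpl had 0.029 in HSL-null and -0.11 in wild type, and both signs turned under each of the 3 between-array normalizations. The dim probe sets gave 0.63 in HSL-null and 0.16 in wild type for Mgll, and -0.25 and 0.11 for Lpl. Within the 4 arrays the highest signal was 2.86 times the lowest for Lipe, 1.41 times for Mgll, 1.43 times for Lipa and 1.36 times for Lpl at the brightest probe sets. At these probe sets Lipe, lower in HSL-null, and Lpl, higher, differed by genotype in the same direction on both diets by more than the probe set SD, Lpl on ND only just and on neither diet at its other probe set. Lipe lay under the filter, where that SD was not measured. Under median scaling Lpl on FD was 0.28, under cyclic loess 0.29, and with the pseudocount Lpl on ND was 0.23, all inside that SD.

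The wider set of cytosolic and endoplasmic reticulum hydrolases and their regulators had 26 genes, of which 12 had a probe set and 11 were kept. None of the 11 differed 2-fold on either diet, near the shares of 2.82% on FD and 1.57% on ND among all kept genes. On FD 4 were above 0 and 7 below, with a median log2 ratio of -0.080 beside 0.067 for all kept genes. On ND 7 were above 0 and 4 below, with a median of 0.088 beside -0.018. Pnpla2, the adipose triglyceride lipase gene, had signals of 225.3 in HSL-null and 238.1 in wild type on FD, and 224.4 and 254.9 on ND, with ratios of -0.080 and -0.18. Abhd5, its activator, had 70.6 in HSL-null and 85.7 in wild type on FD, and 91.4 and 81.3 on ND, or -0.28 and 0.17. As deposited both lay within the probe set SD on both diets, while Abhd5 on FD lay beyond it after the between-array normalizations, at -0.45 to -0.40.

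G0s2, whose product inhibits adipose triglyceride lipase, had the largest ratios of the kept cytosolic list in the downward direction. Its signal was 197.1 in HSL-null and 343.7 in wild type on FD, and 241.7 in HSL-null and 383.1 in wild type on ND. Both HSL-null pools lay below both wild-type pools, with log2 ratios of -0.80 and -0.66, and 5.67% and 4.62% of the kept genes had larger ratios in size. Under the between-array normalizations, the raised floor and the pseudocount the ratios lay between -0.97 and -0.76 on FD and between -0.69 and -0.53 on ND. G0s2 is also an adipocyte gene, and the adipocyte marker values are given beside Lipe. The part of adipocyte RNA in the G0s2 ratios was not tested.

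Among carboxylesterases, Ces1c, a secreted esterase of mouse plasma, had signals of 2174 in HSL-null and 1207 in wild type on FD, and 2012 in HSL-null and 2030 in wild type on ND. The wild-type FD pool stood below the other 3, and the log2 ratio was 0.85 on FD and -0.013 on ND. Of the 11 hepatocyte markers 6 were above 0 and 5 below in HSL-null over wild type on FD, with a median of 0.0041. In FD over ND all 11 were below 0 in wild type, with a median of -0.38 beside -0.047 for all kept genes. In HSL-null liver 3 were above 0 and 8 below in FD over ND, with a median of -0.18. The part of a low wild-type FD pool in the Ces1c ratio was not tested. Apob, the marker with the largest ratio on FD, had 1222 in HSL-null and 703.2 in wild type on FD and 1177 and 1176 on ND. Ces1d, the triacylglycerol hydrolase of the endoplasmic reticulum and a candidate for hydrolysis of liver stores, had 1489 in HSL-null and 1537 in wild type on FD, and 1520 and 1491 on ND. Its ratios were -0.046 and 0.028, and its other probe set gave -0.10 and -0.11. The first probe set carries the suffix for probes shared within a gene family, so signal from related esterases cannot be told apart there. Ces3a, chosen after its values were seen, had 2585 in HSL-null and 1919 in wild type on FD, and 2280 and 1846 on ND, or 0.43 and 0.30.

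**Figure D4:**
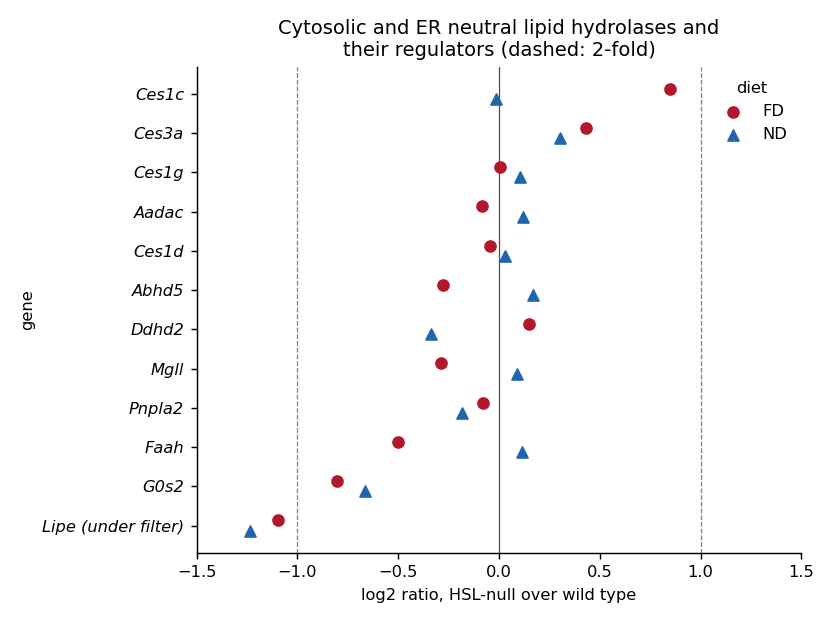
Log2 of HSL-null over wild type on FD (circles) and ND (triangles) for the 12 cytosolic and endoplasmic reticulum genes with a probe set, at the brightest one; dashed lines mark 2-fold. Lipe is below -1 on both diets, G0s2 is at -0.80 and -0.66, and Ces1c is at 0.85 on FD.

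Of the extracellular lipases 3 of 10 genes were kept, Lpl, Cel and Lcat, which encodes the cholesterol acyltransferase of plasma. Cel, the bile salt-stimulated lipase of the pancreas, had signals of 57.7 in HSL-null and 70.5 in wild type on FD, and of 50.2 in HSL-null and 139.4 in wild type on ND. The wild-type ND pool was high and the others lay between 50.2 and 70.5, and the log2 ratios were -0.29 and -1.47. Exocrine pancreas markers were high in the same pool. Their summed signal over 10 genes, Cel included, was 392.2 in HSL-null and 354.9 in wild type on FD. On ND it was 335.4 and 1008.1. Of the 7 kept markers 6, Cel among them, were 2-fold or more lower in HSL-null on ND. Among all kept genes 1.57% differed 2-fold or more there in either direction. Prss2, Reg1 and Cela2a passed the filter only through their signal in the wild-type ND pool, so the count is in part set by the selection. The part of pancreatic RNA in the Cel ratio was not tested.

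Partners and inhibitors of lipoprotein lipase and hepatic lipase had 13 of 18 genes kept. None differed 2-fold by genotype, near the shares of 2.82% on FD and 1.57% on ND among all kept genes. Of the 13 genes 5 were above 0 and 8 below on FD (median log2 ratio -0.013). On ND 6 were above and 7 below (median -0.095). Angptl4, a secreted inhibitor of lipoprotein lipase, had signals of 95.4 in HSL-null and 166.2 in wild type on FD, and 181.9 in HSL-null and 163.3 in wild type on ND. The HSL-null FD pool was the low one at this probe set, with a ratio of -0.80 on FD and 0.16 on ND. A second kept probe set gave -0.45 and -0.012. The remaining kept one gave -0.83 and -0.10, but there the wild-type FD pool stood apart as the high one, with 23.1 in HSL-null and 41.0 in wild type on FD, and 23.9 and 25.7 on ND. Apoc2, the cofactor of lipoprotein lipase, had 2027 in HSL-null and 2041 in wild type on FD, and 2435 and 1953 on ND, or -0.0099 and 0.32, and the sign on FD turned under some normalizations. Lrp1, a receptor for lipoprotein remnants, had 372.4 in HSL-null and 248.0 in wild type on FD, and 386.5 and 513.4 on ND, with ratios of 0.59 and -0.41. The wild-type pools held the extremes of Lrp1, and FD over ND there was -1.05 beside -0.054 in HSL-null liver.

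Lysosomal genes had 11 of 16 members kept. None of these differed 2-fold in any of the 4 comparisons, near the shares of 1.45% to 3.15% among all kept genes. On FD 2 were above 0 and 9 below in HSL-null over wild type, with a median of -0.094, and on ND 6 were above and 5 below, with a median of 0.058. Npc1 and Npc2, which move cholesterol out of lysosomes after acid lipase has freed it, had ratios of -0.040 and -0.27 on FD and of -0.15 and -0.054 on ND. Gm2a, an activator protein of ganglioside breakdown, had 109.1 in HSL-null and 148.7 in wild type on FD, and 165.3 and 205.0 on ND, or -0.45 and -0.31. Lamp2, a lysosomal membrane protein gene chosen after its values were seen, had -0.094 on FD and 0.32 on ND, and its other probe set -0.083 and 0.52.

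Droplet coat and fusion genes had 3 of 12 members kept. None of the kept ones differed 2-fold by genotype, near the shares of 2.82% on FD and 1.57% on ND among all kept genes. Cidea, under the filter, was 2-fold or more lower in HSL-null on ND, with a log2 ratio of -1.69 from the dim signals given beside Lipe. Of the 10833 probe sets, 3.9% differed 2-fold or more there in either direction. Plin2, the main droplet coat protein of hepatocytes, had signals of 1858 in HSL-null and 1687 in wild type on FD, and 1909 and 1896 on ND, or 0.14 and 0.0092. Cideb, which acts in loading of very low density lipoprotein, had 1266 in HSL-null and 1575 in wild type on FD, and 1322 and 1252 on ND, or -0.32 and 0.079. Among 7 kept genes of neutral lipid synthesis, 1 was above 0 and 6 below on FD (median -0.30), and 5 were above and 2 below on ND (median 0.16). Dgat1, which makes triglyceride from diglyceride, had 75.9 in HSL-null and 92.5 in wild type on FD, and 93.3 and 71.6 on ND, or -0.29 and 0.38. Its dim probe set gave -0.20 and 1.17 from signals of 8.0 and 9.2 on FD and 16.2 and 7.2 on ND. Gpam, which encodes a glycerol-3-phosphate acyltransferase and was chosen after its values were seen, had the largest ratio of the list on ND. It had 385.4 in HSL-null and 484.6 in wild type on FD, and 672.5 and 428.7 on ND, or -0.33 and 0.65. The HSL-null ND pool was the high one, and FD over ND was -0.80 in HSL-null and 0.18 in wild type. Lpin1, a phosphatidate phosphatase gene, had 172.7 in HSL-null and 262.4 in wild type on FD, and 356.1 and 396.3 on ND, and its FD over ND ratio was -1.04 in HSL-null and -0.59 in wild type.

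Genes of lipolysis signalling, which acts on HSL through protein kinase A, had 7 of 14 members kept. For genotype 6 were above 0 and 1 below on FD (median 0.15), and 2 above and 5 below on ND (median -0.028). None was 2-fold different, near the shares of 2.82% on FD and 1.57% on ND among all kept genes. Prkaca, the catalytic subunit gene, had 124.1 in HSL-null and 117.5 in wild type on FD, and 121.9 and 108.5 on ND, and was chosen after its values were seen. Fabp5, which carries fatty acids, was the member that differed by diet in both genotypes. It had 66.9 on FD and 210.3 on ND in HSL-null liver, and 60.2 on FD and 196.4 on ND in wild type, log2 ratios of -1.65 and -1.71. Both FD pools lay below both ND pools, and the ratios lay between -1.81 and -1.45 in HSL-null and between -1.71 and -1.48 in wild type under the other normalizations, floor and pseudocount.

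**Figure D5:**
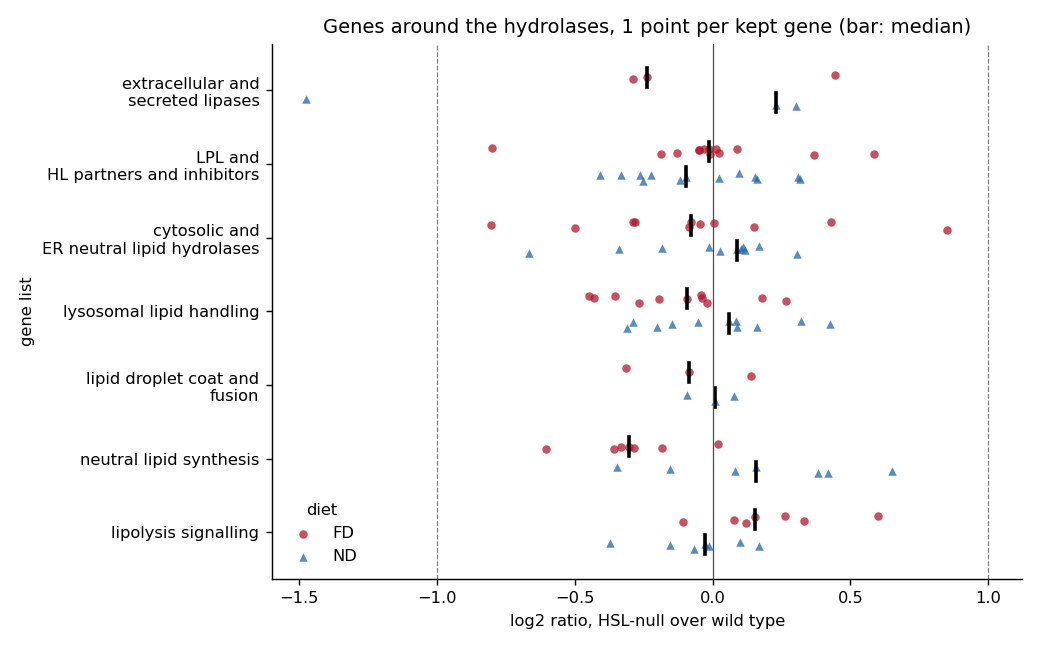
Log2 of HSL-null over wild type for each kept gene of 7 lists around the hydrolases, on FD (circles) and ND (triangles), with the median as a black bar and 2-fold dashed; vertical jitter separates points. The 1 point beyond 2-fold is Cel on ND at -1.47, and the neutral lipid synthesis medians are -0.30 on FD and 0.16 on ND.

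Genes with the pattern most like each member were the 3 kept genes at the smallest Euclidean distance over the 4 log2 signals, each centred on its own mean. For Lipe they were Lamc1, which encodes a laminin chain, at 0.41, Pex11a, a gene of peroxisome division, at 0.45, and Hcn3, an ion channel gene, at 0.49. Pex11a had signals of 292.9 in HSL-null and 469.4 in wild type on FD, and 246 in HSL-null and 431.4 in wild type on ND, so its HSL-null pools were the lower ones with a narrower gap. The nearest genes to Mgll were Ivd, Stk11 and Copz2, at 0.022 to 0.036. Those of Lpl were P2rx4, Mterf3 and Wwtr1, at 0.021 to 0.034. Those of Lipa were Mpzl2, Cdk5 and Tmem183a, at 0.042 to 0.062. With 4 arrays and 4829 genes many patterns lie close, and Lipe had the most distant neighbours of the 4 members. The search took kept genes only, while Lipe lay under the filter with ratios beyond 2-fold. Its distances are therefore not read as a distinct pattern.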

How the data were processed

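Liver RNA pools of 4 groups were measured, 1 array each. Per the labels' protocols, RNA was purified after phenol extraction and labelled with biotin. The authors deposited an intensity (signal) for each probe set, linear in scale, made with MAS5 per the submitters' processing notes (its version is not stated in them). Other deposited files hold run settings. Probe sets were named from the platform annotation, and the 66 controls were left out. Signals were floored at 6.1, taken to log2 and subtracted between arrays. The brightest probe set stood for a gene. Differences of 2-fold or more were counted. No test was made, as arrays were not replicated, and 4 arrays limit the precision. Alternatives were quantile normalization and cyclic loess (limma 3.58.1, R 4.3.3), median scaling, another floor, a pseudocount of 16, other filters and all probe sets of a gene. Counting was tested on simulated data with changes well above 2-fold, in bright probe sets and with little noise. It does not cover dim probe sets or changes near 2-fold. Python 3.11.15 was used. Named genes were the members, list genes at least 2-fold different (at most 4 a list, or else the 2 largest), preset centre genes of each list and nearest patterns. Of the preset genes, Apoc3, Dgat2, Soat2 and Gpihbp1 were not analysed here. The members and lists were chosen with earlier results of these data known.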

Additional observations from a re-analysis of the deposited data

Results flagged for a closer look

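In 4 of the 55 kept genes of the 7 lists (7.27%), the genotype ratios had opposite signs on the 2 diets and both lay beyond the probe set SD of 0.298, beside 7.58% of all kept genes. These differences were not tested, as each ratio rests on 2 single arrays. Lipa had log2 ratios of HSL-null to wild type of -0.43 on FD and 0.42 on ND, a difference of -0.86. Gpam had -0.33 on FD and 0.65 on ND, a difference of -0.98. Lrp1 had 0.59 on FD and -0.41 on ND, a difference of 0.996, and its ND ratio was -0.28 under median scaling, inside that SD. Prkar2a, which encodes a regulatory subunit of protein kinase A, had 0.60 on FD and -0.37 on ND, a difference of 0.971, and its ND ratio was inside the SD under each between-array normalization (-0.29 to -0.24). Gpam and Prkar2a were chosen after their values were seen. The SD of that difference over all kept genes was 0.55.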

How the results depend on the processing

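No paired analysis was possible because each group was 1 array with no replicate number, and no array could be left out for the same reason. Of 88 member ratios recomputed under the alternatives, 81 moved by less than the probe set SD, 7 moved further, and 10 took the other sign, all of them Mgll or Lpl ratios under 0.12 in size. Lipe had -0.35 on FD, -0.069 on ND and 0 for FD over ND in HSL-null with the floor at the median, and -0.65 on FD and -0.66 on ND with the pseudocount. These settings raise the lowest signals by construction. With the mean of all probe sets of a gene, Mgll had -0.31 on ND and Lpl 0.057 on FD. The number of kept genes at 2-fold or more was 136 for genotype on FD, 76 for genotype on ND, 70 for diet in HSL-null and 152 for diet in wild type. In that order it was 89, 47 and 46 with the floor at the median (diet in wild type within 1.5 times), 63, 28, 33 and 69 with the pseudocount, 419, 314, 290 and 482 with no filter, and 67, 27, 37 and 76 with the filter at 2 times the median. Lipe enters the gene counts only without the filter. The sign of small ratios, the genotype ratios of Apoc2 and Plin2 on FD and of Ces1c and Npc2 on ND among them, turned under some normalizations. Low signal limits Lipe and the dim probe sets of Mgll and Lpl most.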
